A study of Mus musculus with 6 samples.

Results

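The TRIM family genes were followed in B cells from the spleens of 6 mice, 3 Crebbp-deleted and 3 Crebbp-floxed. Members were all genes whose symbol is Trim followed by a number, with at most 1 letter or a hyphenated suffix after it, and 58 of the 18193 genes measured met that rule. The RefSeq gene table held 69 such symbols, and the other 11 had no probe set annotated to them alone and were not analysed here. The genes were chosen by symbol. Where a gene had several probe sets, the one that stands for it was selected on its mean over the 6 samples, the highest being taken, so levels are given only as a description.

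The Crebbp-deleted mice are CBPΔ/Δ x EµBcl2 and the Crebbp-floxed mice CBPF/F x EµBcl2, so that both groups over-express Bcl2 from a transgene under the Eµ enhancer, which is active in B-lineage cells, and the floxed mice are not wild type. CBP is the histone acetyltransferase that Crebbp encodes. The Cre line, the ages and the sexes of the mice are not given in the sources used here. Each mouse gave 1 Affymetrix array, made from spleen cells that had been frozen, thawed and depleted of CD43-positive cells on beads, and the comparison asks which transcripts of Bcl2-overexpressing B cells differ when Crebbp is lost. All levels are given as log2 of the intensity, and a difference is the deleted mean minus the floxed mean.

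TRIM proteins share a RING finger, B-box zinc fingers and a coiled coil, and their C-terminal domain sets what they bind. The RING finger lets most of them act as ubiquitin ligases, which pass ubiquitin from an E2 enzyme to a target. Trim14, Trim16, Trim29, Trim44 and Trim66 lack a RING finger, so the family name does not make every member a ligase. Many members act in the cell's defence against viruses, and a large share of these are switched on by interferon. Others work at chromatin, on the cytoskeleton or on RNA.

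Crebbp was lower at each of its 4 probe sets, at 51.0 to 70.6% of the floxed level, with no overlap between the groups. The 9 measured B cell markers had median levels of 11.16 to 11.28 in the deleted samples and 11.64 to 11.95 in the floxed samples, far above the median probe set of 4.29. In the deleted samples 8 of the 9 were lower, 7 of 9 did not overlap, and 2 passed limma, Cd79a of the B cell receptor lower (−1.11, adjusted p = 0.0093) and the heavy chain Ighm higher (0.63, adjusted p = 0.032). The summed intensity of 16 monocyte and macrophage markers was 1772 to 4218 in the deleted samples and 604 to 1933 in the floxed samples, with 15 of 16 higher in the deleted group, 0 past limma and 10 at an unadjusted p under 0.05. That of 11 plasma cell markers was 12770 to 20570 in the deleted samples and 6569 to 7319 in the floxed samples, with 11 of 11 higher, 1 past limma and 9 at an unadjusted p under 0.05. That of 10 T cell markers was 297 to 338 in the deleted samples and 211 to 336 in the floxed samples, with 7 of 10 higher, 0 past limma and 1 at an unadjusted p under 0.05. The sums overlapped between the groups for the macrophage and T cell markers but not for the plasma cell markers. Over all genes 21.2% did not overlap, 0.781% passed limma and 14.8% had an unadjusted limma p under 0.05. No probe set on these arrays reads 0, the lowest intensity being 2.96, and the part of any of these cells in the values below was not tested. Xist and 3 Y-linked genes marked deleted samples 1 and 3 and floxed sample 1 as male and the other 3 samples as female. In floxed sample 2, 26 of 32 interferon-stimulated genes had their highest value of the 6 samples.

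Among the 58 TRIM genes 2 fell and 1 rose upon loss of Crebbp, at a limma p under 0.05 after Benjamini-Hochberg adjustment over all genes. These were Trim5 and Trim12a, which lie side by side in a cluster of antiviral TRIM genes on chromosome 7, and Trim32, which rose. The 3 genes are 5.17% of the family, and 0.781% of all 18193 genes passed the same test, 0.236% lower and 0.544% higher. At an unadjusted limma p under 0.05 there were 13 members, 7 lower and 6 higher, which is 22.4% of the family against 14.8% of all genes (6.84% lower and 7.96% higher). In 17 members the values of the 2 groups did not overlap, 29.3% against 21.2% of all genes. The median difference was 0.01 over the members and 0.01 over all genes, and 30 members had positive and 28 negative differences. In bulk samples such as these, fewer cells of a type and less RNA per cell cannot be told apart.

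**Figure D1:**
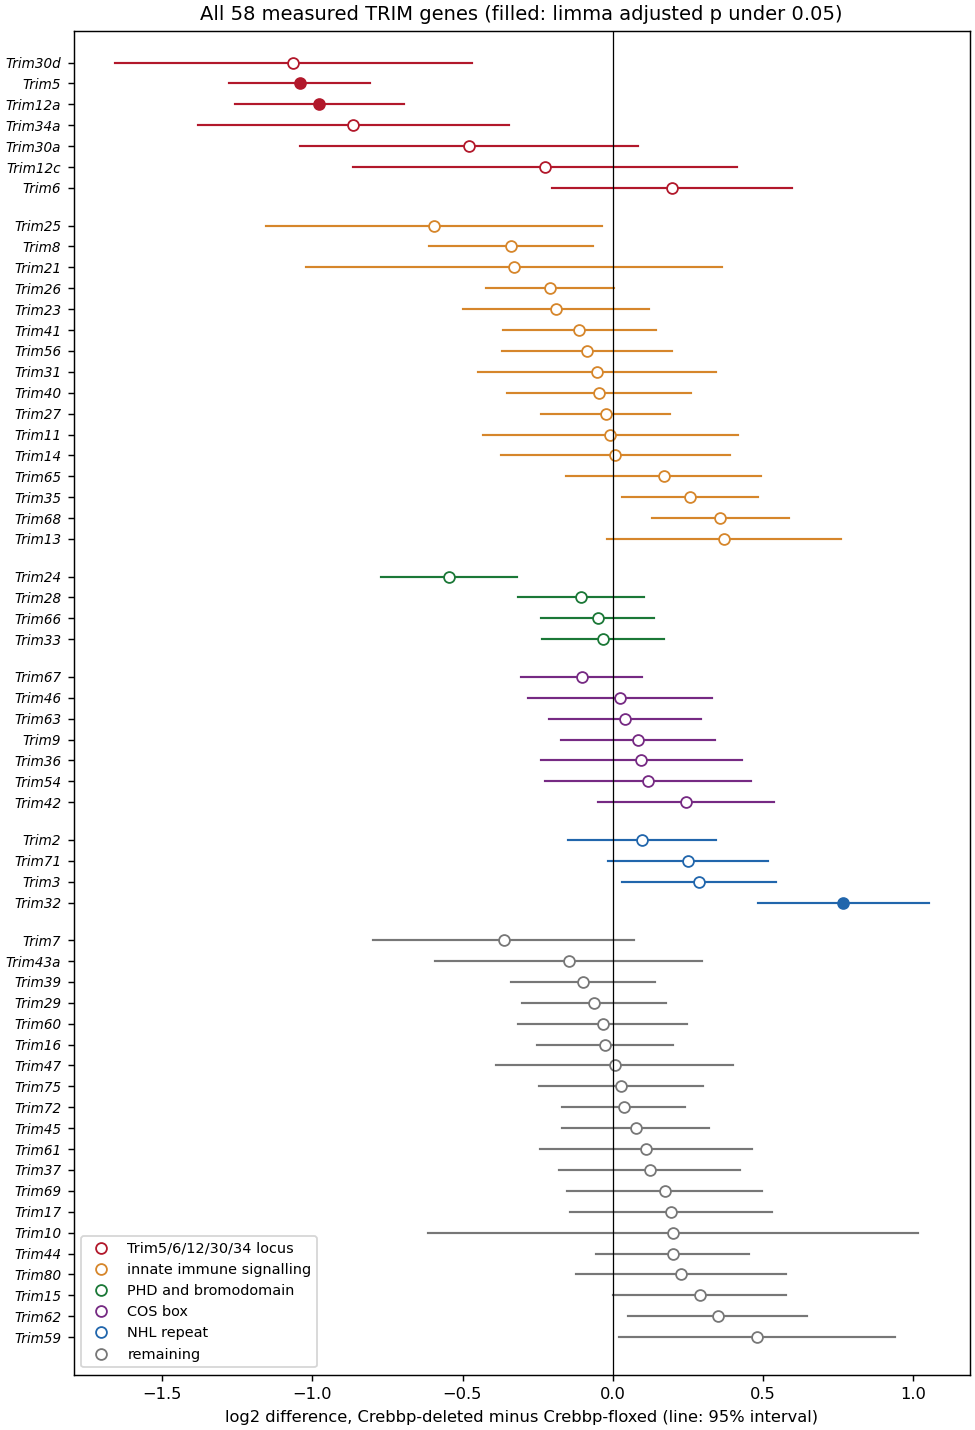
Log2 difference, Crebbp-deleted minus Crebbp-floxed, of each of the 58 measured TRIM genes, with its 95% interval as a line, coloured by role group. Filled points passed limma at an adjusted p under 0.05 (Trim5, Trim12a and Trim32), and the 3 most negative points, −1.06 to −0.98, are Trim30d, Trim5 and Trim12a of the chromosome 7 locus. The next, Trim34a at −0.86, had 1.15 at its other probe set.

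Both genes that fell lie in 1 place in the genome. Trim6, Trim34a, Trim5, Trim12a, Trim12c, Trim30a and Trim30d lie in this order within 289.1 kb of chromosome 7 (chr7:104218795-104507853, GRCm38.p6). Primate TRIM5 grips the capsid of an incoming retrovirus with its C-terminal SPRY domain, and Trim12a, Trim12c and the Trim30 genes are rodent relatives of primate TRIM5. At the brightest probe set of each gene 6 of the 7 differences were negative, with a median of −0.86, which is the value of Trim34a. The 2 probe sets of Trim34a went opposite ways, and with its other probe set 5 of 7 were negative, with a median of −0.48. Without Trim34a 5 of 6 were negative, with a median of −0.73. At the brightest probe sets 2 of the 7 (28.6%) passed the test, 4 (57.1%) had an unadjusted p under 0.05 and 5 (71.4%) had groups that did not overlap. Over all genes these shares were 0.781%, 14.8% and 21.2%. Among the 51 members outside the locus 1 passed, which is 1.96%, and the median was 0.03.

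The starts of these genes are shown because 6 of the 7 hold the core of the interferon-stimulated response element, GAAA and GAAA with any 2 bases between them, the site bound by the factor that interferon signalling activates. Each sequence runs from 100 bases before to 30 bases after the RefSeq start, 5′ to 3′ on the gene's own strand, and capitals mark the match, which in all 6 reads as the reverse complement of the motif. This start is the one each RefSeq promoter is built around, and it can lie inside the outer end of the gene. The whole Trim5 window lies inside the gene's span of chr7:104263386-104288254. Part of the Trim12a window lies inside that gene's span of chr7:104299893-104315558. The windows are chr7:104244357-104244486 (plus strand) for Trim34a, chr7:104288077-104288206 (minus) for Trim5, chr7:104315466-104315595 (minus) for Trim12a and chr7:104353320-104353449 (minus) for Trim12c. They are chr7:104465164-104465293 (minus) for the more upstream of the 2 starts of Trim30a, chr7:104507820-104507949 (minus) for Trim30d and chr7:104218695-104218824 (plus) for Trim6, which has no match in its 300-base promoter.
Trim34a: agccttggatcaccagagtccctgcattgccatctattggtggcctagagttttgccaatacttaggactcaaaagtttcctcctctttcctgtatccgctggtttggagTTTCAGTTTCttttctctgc
Trim5: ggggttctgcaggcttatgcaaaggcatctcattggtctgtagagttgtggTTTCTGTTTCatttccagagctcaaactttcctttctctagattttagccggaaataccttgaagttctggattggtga
Trim12a: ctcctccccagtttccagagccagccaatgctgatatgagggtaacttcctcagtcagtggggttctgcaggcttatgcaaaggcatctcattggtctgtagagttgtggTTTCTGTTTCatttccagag
Trim12c: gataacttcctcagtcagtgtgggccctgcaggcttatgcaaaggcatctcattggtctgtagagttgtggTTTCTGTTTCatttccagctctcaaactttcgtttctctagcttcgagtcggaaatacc
Trim30a: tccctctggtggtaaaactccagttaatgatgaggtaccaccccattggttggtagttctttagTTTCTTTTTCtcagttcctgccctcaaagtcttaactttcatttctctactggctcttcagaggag
Trim30d: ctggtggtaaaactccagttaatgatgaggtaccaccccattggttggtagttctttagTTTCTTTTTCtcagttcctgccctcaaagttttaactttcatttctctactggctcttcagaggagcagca
Trim6: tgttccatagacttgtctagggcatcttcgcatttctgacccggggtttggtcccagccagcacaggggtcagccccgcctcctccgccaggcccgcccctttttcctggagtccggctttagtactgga

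Counted from the start as position 1, with −1 just before it, the match begins at −49 in Trim5, −41 in Trim30d, −36 in Trim30a, −29 in Trim12c and 11 in both Trim12a and Trim34a. Trim5, Trim12a and Trim12c share the match TTTCTGTTTC, Trim30a and Trim30d share TTTCTTTTTC, and Trim34a has TTTCAGTTTC. Promoters of 47 of the 58 members were in the RefSeq table, and 9 of the 47 (19.1%) held the motif on either strand in at least 1 promoter, the other 3 being Trim2, Trim21 and Trim26. The share was 3.99% over all 27025 genes with a promoter, and 3.44% over all 32851 promoters of 300 bases. These genes are related and their starts share stretches of sequence, so their matches are not independent of each other. A match of letters does not show that a factor binds there.

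Trim5 (chr7:104263386-104288254), whose primate counterpart blocks retroviral capsids, had 5.79, 5.76 and 5.66 in the Crebbp-deleted mice, against 6.93, 6.71 and 6.69 in the Crebbp-floxed mice. The groups were far apart and each was tight. The difference was −1.04 ± 0.10 (SE), or 2.06-fold lower (limma adjusted p = 0.011). With sex as a term it was −1.07 (limma adjusted p = 0.038), within males, 2 deleted and 1 floxed, −1.20 and within females, 1 deleted and 2 floxed, −0.94, neither of these past the threshold (limma adjusted p = 0.161 and 0.407). The call was lost without deleted sample 1 (−1.07, limma adjusted p = 0.067) and without floxed sample 1 (−0.97, limma adjusted p = 0.055). Of all 18193 genes, 16 passed without deleted sample 1 and 0 without floxed sample 1, against 142 in the main fit.

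Trim12a (chr7:104299893-104315558), which lies next to Trim5, had 7.68, 7.74 and 7.51 in the deleted mice, against 8.50, 8.83 and 8.53 in the floxed mice. Each deleted mouse was below each floxed mouse, and floxed sample 2 was the highest. The difference was −0.98 ± 0.12 (SE), or 1.97-fold lower (limma adjusted p = 0.021). The second probe set of Trim12a was dim, with 3.71 in the deleted group and 3.94 in the floxed group, and differed by −0.23 (limma adjusted p = 0.464 over all probe sets). The mean of both probe sets gave −0.60 (limma adjusted p = 0.068). The call was also lost with sex as a term (−0.92, limma adjusted p = 0.066) and without deleted samples 1, 2 or 3 or floxed sample 1 (−0.997, −1.02, −0.91 and −1.04, limma adjusted p = 0.104, 0.062, 0.064 and 0.075). Of all 18193 genes, 142 passed in the main fit and 37 with sex as a term. In the 4 fits without 1 sample, in the same order, 16, 45, 62 and 0 genes passed.

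Trim30d had 7.69, 7.61 and 7.72 in the deleted mice, against 8.56, 9.37 and 8.28 in the floxed mice. The deleted samples were the low ones, and floxed sample 2 stood above the other floxed samples. Its difference of −1.06 ± 0.25 (SE) did not pass (limma adjusted p = 0.118). Leaving out floxed sample 2 gave −0.75 (limma adjusted p = 0.059). Its second probe set was lower by a similar amount, at −0.88 ± 0.20 (SE, limma adjusted p = 0.107 over all probe sets).

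Trim34a, whose human counterpart also acts on retroviral capsids, had 9.41, 9.36 and 9.13 in the deleted mice, against 10.002, 10.68 and 9.80 in the floxed mice. Again the groups did not overlap and floxed sample 2 was the highest. The difference was −0.86 ± 0.22 (SE, limma adjusted p = 0.141), and −0.60 without floxed sample 2 (limma adjusted p = 0.110). The 2 probe sets of Trim34a went opposite ways. The dimmer one had 5.86, 5.93 and 5.12 in the deleted mice, against 4.37, 4.91 and 4.18 in the floxed mice. It stood 1.15 ± 0.26 (SE) higher in the deleted group without overlap (limma adjusted p = 0.106 over all probe sets), so no single direction can be given for this gene.

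Trim30a, which in mice damps Toll-like receptor signalling by removing TAB2 and TAB3, had 9.19, 9.23 and 8.87 in the deleted mice, against 9.33, 10.15 and 9.26 in the floxed mice. At this probe set the groups just failed to overlap, and floxed sample 2 alone stood clear. The difference of −0.48 ± 0.24 (SE, limma adjusted p = 0.407) became −0.19 without that sample. Its second probe set, with 9.21 in the deleted group and 9.43 in the floxed group, differed by −0.21, and there the groups overlapped. Trim12c had 8.61, 8.52 and 8.63 in the deleted mice, against 8.53, 9.52 and 8.39 in the floxed mice. These groups overlapped, and the difference of −0.23 (limma adjusted p = 0.758) became 0.13 without floxed sample 2. Its second probe set had 7.14, 6.80 and 7.03 in the deleted mice, against 7.56, 7.88 and 7.24 in the floxed mice, without overlap (−0.57, limma adjusted p = 0.190 over all probe sets). Trim6 was dim, at 3.54, 3.44 and 4.10 in the deleted mice, against 3.55, 3.43 and 3.51 in the floxed mice, and its 2 probe sets differed in sign, at 0.20 and −0.24.

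**Figure D2:**
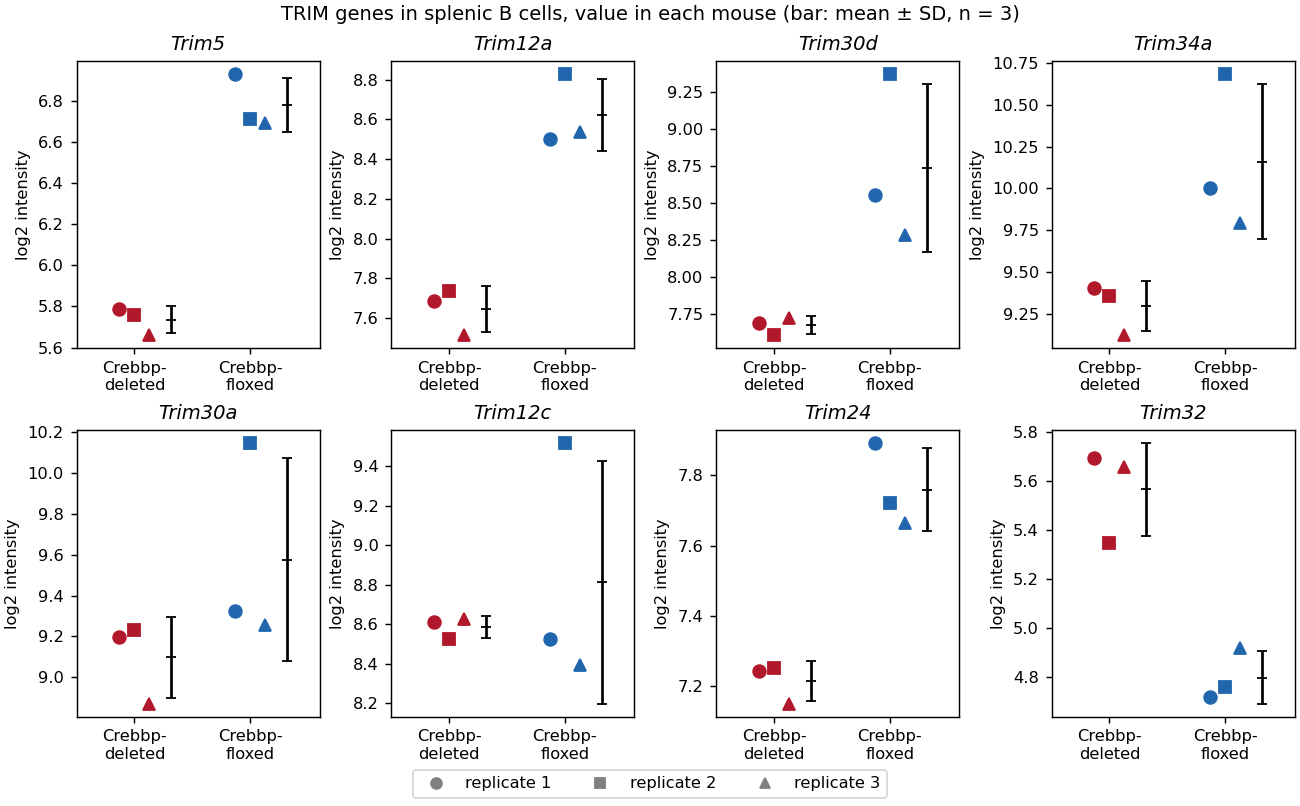
Log2 intensity of 8 TRIM genes in each mouse, Crebbp-deleted at left and Crebbp-floxed at right of each panel, with symbols for the replicate number and a bar for the mean ± SD (n = 3). The axes do not start at 0 and differ between panels. Trim5, Trim12a, Trim24, Trim32, Trim30d, Trim34a and Trim30a show 2 groups without overlap, and in Trim12c the groups overlap. In Trim12a floxed sample 2 is the highest, at 8.83 against 8.50 and 8.53 in the other floxed samples (SD 0.18). In Trim30d, Trim34a, Trim30a and Trim12c floxed sample 2 stands further above the other floxed samples, with floxed SDs of 0.46 to 0.61.

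A further 4 probe sets are annotated to more than 1 gene, at least 1 of them of this locus, and stand for no single member. None of the 4 overlapped between the groups, which held for 21.2% of all genes, and the differences were −1.26, −0.79, −0.69 and −0.46. The first of these had 4.91, 5.33 and 4.68 in the deleted mice, against 6.23, 6.41 and 6.07 in the floxed mice, and passed when tested among all probe sets (limma adjusted p = 0.034). Floxed sample 2 was the highest at each of the 4. In the order above it had 6.41, 8.77, 8.02 and 7.39, against 6.23, 8.25, 7.25 and 6.77 in floxed sample 1. Floxed sample 3 had 6.07, 8.075, 7.05 and 6.67. Probe sequences were not used here, so whether a probe set of one of these related genes also reads its neighbours was not tested.

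**Figure D3:**
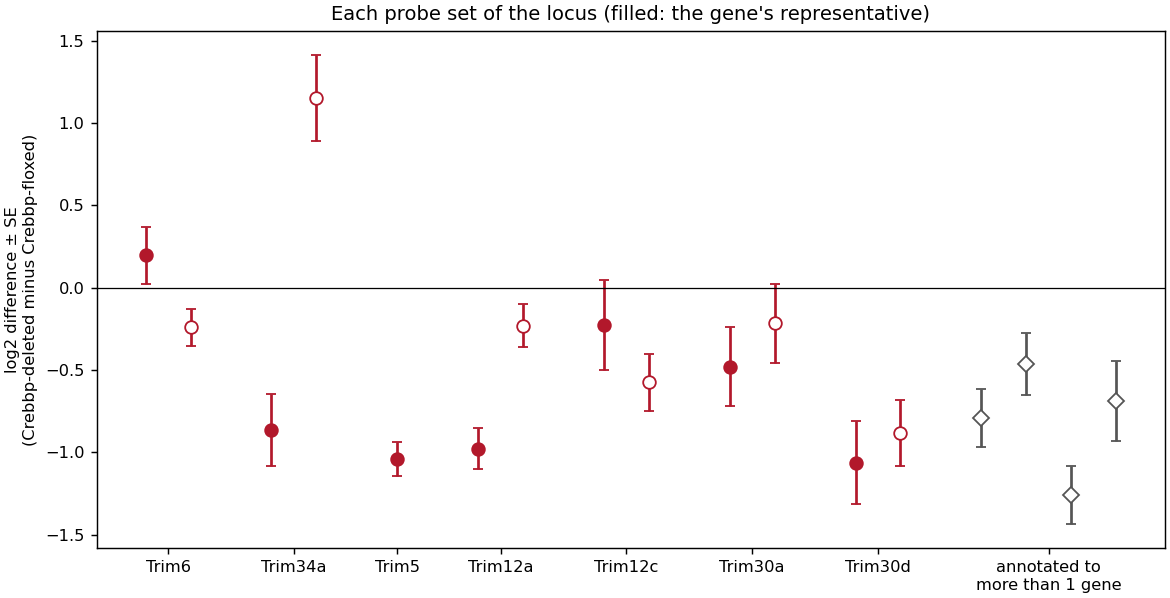
Log2 difference, Crebbp-deleted minus Crebbp-floxed, with its SE, at each probe set of the chromosome 7 genes, in genome order from left to right, filled where the probe set stands for its gene. Grey diamonds are the 4 probe sets annotated to more than 1 gene. Values run from −1.26 to 1.15, and the highest is the second probe set of Trim34a.

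Within 1 Mb on either side of the cluster, a window chosen after the values were seen, 17 other genes were measured. Here 0 passed limma and 1 reached an unadjusted p under 0.05, Hbb-bh1, an embryonic beta globin, with 0.61 (limma adjusted p = 0.080). The differences of the 17 had a median of 0.02 and ran from −0.18 to 0.61, with 8 of them negative. Only 3 of the 17 had a mean above the median probe set, so for most of these neighbours, several of them olfactory receptors, the arrays had little signal to compare.

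**Figure D4:**
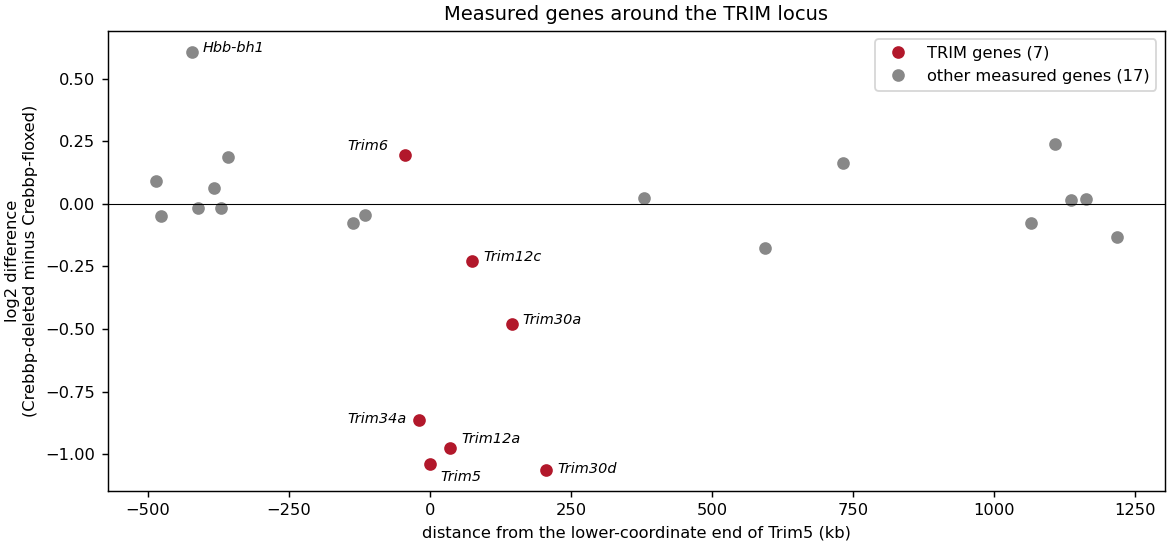
Log2 difference, Crebbp-deleted minus Crebbp-floxed, of the measured genes on chromosome 7 within 1 Mb of the TRIM cluster, plotted by distance in kb from the lower-coordinate end of Trim5. The 7 TRIM genes are red and the 17 others grey. Of the red points 3 lie between −1.06 and −0.98 and Trim34a, with 1.15 at its other probe set, at −0.86, while the grey points lie between −0.18 and 0.61.

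Interferon-stimulated genes were set beside the locus, since several of its genes belong to that class. Of 32 such genes measured, 0 passed limma and 6 (18.8%, against 14.8% of all genes) reached an unadjusted p under 0.05, 3 higher and 3 lower. Their median difference was −0.24, with 26 negative. Oasl1, an interferon-induced relative of 2′-5′ oligoadenylate synthetases, differed by −1.18 (limma adjusted p = 0.095) and the RNA sensor Dhx58 by −0.58 (limma adjusted p = 0.206). The guanylate-binding proteins Gbp3 and Gbp2 differed by 0.95 and 1.17 in the other direction (limma adjusted p = 0.062 and 0.225).

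Much of this list followed floxed sample 2. Relative to each gene's mean over the 6 samples, the median of the list was −0.06, −0.14 and −0.19 in the deleted samples and −0.06, 0.68 and −0.25 in the floxed samples. The median of the 7 locus genes was −0.32, −0.37 and −0.48 in the deleted samples and 0.27, 0.81 and 0.07 in the floxed samples. Both sets peaked in floxed sample 2. Trim34a itself set the locus median in several samples, and with its other probe set this median was −0.14, −0.18 and −0.47 in the deleted samples and −0.01, 0.69 and −0.08 in the floxed samples. Without floxed sample 2 the median difference of the interferon list was 0.04, with 11 of 32 negative. That of the locus was then −0.60, again the value of Trim34a, with 5 of 7 negative, and −0.19 with the other probe set of Trim34a, with 4 of 7 negative. Without floxed sample 2 Trim5 (−1.08, limma adjusted p = 0.026) and Trim12a (−0.87, limma adjusted p = 0.038) were past the test. Whether the 2 sets differ from each other was not tested.

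**Figure D5:**
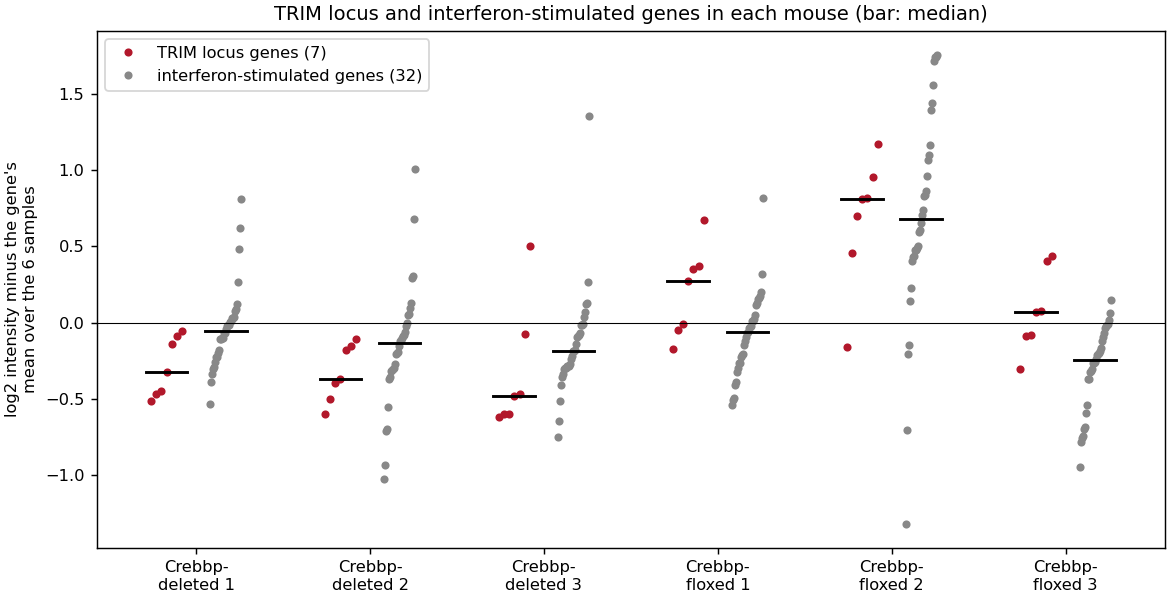
Log2 intensity minus the gene's own mean over the 6 samples, in each mouse, for the 7 TRIM genes of the chromosome 7 locus (red) and 32 interferon-stimulated genes (grey), with medians as bars. The interferon median is 0.68 in floxed sample 2 and between −0.25 and −0.06 in the other 5 samples, while the locus median is −0.48 to −0.32 in the deleted samples and 0.07 to 0.81 in the floxed samples, or −0.47 to −0.14 and −0.08 to 0.69 with the other probe set of Trim34a.

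Outside the locus, 16 members have known roles in innate immune signalling. Here 0 passed limma and 4 (25%, against 14.8% of all genes) reached an unadjusted p under 0.05, 2 lower and 2 higher. Of the 16 differences 11 were negative, with a median over the 16 of −0.05. Trim25, which ubiquitinates the RNA sensor RIG-I, had 9.47, 10.12 and 9.22 in the deleted mice, against 10.48, 10.14 and 9.98 in the floxed mice. The groups overlapped through deleted sample 2. The difference was −0.60 ± 0.24 (SE, limma adjusted p = 0.305), and its 3 probe sets lay between −0.60 and −0.45. Within males it was −1.13, but within females, where 1 deleted sample meets 2 floxed ones, it was 0.06.

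Trim8, which promotes NF-kB signalling, had 7.74, 7.57 and 7.75 in the deleted mice, against 8.20, 7.86 and 8.02 in the floxed mice, a small gap without overlap (−0.34 ± 0.12 SE, limma adjusted p = 0.238). Of its 3 probe sets 2 were lower and 1 was 0.04 higher. Trim68 had 5.57, 5.59 and 5.47 in the deleted mice, against 5.14, 5.32 and 5.10 in the floxed mice, again without overlap (0.36 ± 0.10 SE, limma adjusted p = 0.156). Trim35 had 9.97, 9.93 and 9.78 in the deleted mice, against 9.58, 9.74 and 9.59 in the floxed mice (0.26 ± 0.10 SE, limma adjusted p = 0.276). Trim13, a ligase anchored in the endoplasmic reticulum, differed by 0.37 with overlapping groups (limma adjusted p = 0.359).

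Trim21, the cytosolic receptor for the constant part of antibodies, had 7.13, 7.23 and 7.39 in the deleted mice, against 7.23, 8.34 and 7.17 in the floxed mice. Only floxed sample 2 stood out, and the difference of −0.33 did not pass (limma adjusted p = 0.665). It was 0.05 without that sample, 0.03 within males and −0.52 within females, where floxed sample 2 lies. At the second probe set of Trim21 the difference was −0.15. Trim26 and Trim23 differed by −0.21 and −0.19, and Trim65, which acts on the RNA sensor MDA5, by 0.17. The other 7, Trim41, Trim56, Trim31, Trim40, Trim27, Trim11 and Trim14, lay between −0.11 and 0.01.

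The 4 members with a PHD finger and a bromodomain all had negative differences, with a median difference of −0.08. Here 0 passed limma and 1, Trim24 (25%, against 14.8% of all genes), reached an unadjusted p under 0.05. Trim24, a co-regulator of nuclear receptors that binds acetylated histone H3 and is a ligase for p53 (chr6:37870811-37968445), had 7.24, 7.25 and 7.15 in the deleted mice, against 7.89, 7.72 and 7.66 in the floxed mice. The groups were clearly separate. The difference was −0.55 ± 0.10 (SE), or 1.46-fold lower, just outside the threshold (limma adjusted p = 0.060). Each of its other 2 probe sets was lower without overlap as well, with differences of −1.07 and −0.45, and with the mean of the 3 in place of the brightest it came to −0.69, past the threshold (limma adjusted p = 0.039). Trim24 passed in only this 1 of 19 alternatives at the same threshold. With sex as a term its difference was −0.57 (limma adjusted p = 0.1075). Without 1 sample its limma adjusted p ran from 0.069 to 0.189. The difference was −0.70 within males and −0.44 within females.

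Trim28, also called KAP1, the co-repressor of KRAB zinc finger proteins, differed by −0.11 (95% interval −0.32 to 0.10). Trim33, a partner of SMAD proteins, differed by −0.03 (−0.24 to 0.17). Both lay well above the median probe set, and both intervals stayed within 0.5 log2 units. Trim66 was dim and differed by −0.05.

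All 4 members with NHL repeats, which bind RNA or proteins, had positive differences, with a median of 0.27. Of all 18193 genes, 9707 had positive differences. Of the 4, 1 (25%) passed, 2 (50%) had an unadjusted limma p under 0.05 and 3 (75%) did not overlap. Over all genes these shares were 0.781%, 14.8% and 21.2%. Trim32 (chr4:65604986-65616240), a ligase best known from muscle, where its mutation causes limb-girdle muscular dystrophy in people, had 5.69, 5.35 and 5.65 in the deleted mice, against 4.72, 4.76 and 4.92 in the floxed mice. All 3 deleted samples were higher. It rose by 0.77 ± 0.12 (SE), 1.70-fold, with a limma adjusted p of 0.046, at the single probe set that measures it. This call sat at the edge of the threshold. It was lost with sex as a term (0.73, limma adjusted p = 0.105) and without any one sample other than floxed sample 3, where limma adjusted p-values were 0.162, 0.054 and 0.131 without deleted samples 1, 2 and 3 and 0.173 and 0.086 without floxed samples 1 and 2. Of all 18193 genes, 142 passed in the main fit and 37 with sex as a term. In the fits without 1 of these samples, in the same order, 16, 45, 62, 0 and 140 genes passed. Trim3, which is studied in neurons, had 5.40, 5.43 and 5.68 in the deleted mice, against 5.13, 5.20 and 5.31 in the floxed mice (0.29 ± 0.11 SE, limma adjusted p = 0.283). Trim71, a regulator of RNAs in stem cells, and Trim2 were dim and differed by 0.25 and 0.10.

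The 7 measured members with a COS box attach to microtubules or to the muscle sarcomere. At their brightest probe sets they gave 0 calls in limma, also at an unadjusted p under 0.05 (0.781% and 14.8% of all genes). Of these 5 were dim in both groups, and their differences ran from −0.10 in the neuronal Trim67 to 0.24 in Trim42. Between these lay Trim46, which organises microtubules in axons, the muscle ligases Trim63 and Trim54, Trim9 and Trim36, at 0.02 to 0.12. The second probe set of Trim36 was 0.25 higher in the deleted group, without overlap (limma unadjusted p = 0.036, adjusted p = 0.293 over all probe sets).

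Of the remaining 20 members 0 passed limma and 2 (10%, against 14.8% of all genes) reached an unadjusted p under 0.05, both higher. Trim59, a membrane-anchored member, had 9.02, 8.79 and 8.92 in the deleted mice, against 8.11, 8.89 and 8.29 in the floxed mice, where floxed sample 2 lay among the deleted samples (0.48 ± 0.20 SE, limma adjusted p = 0.316). Trim62 had 4.10, 4.07 and 4.48 in the deleted mice, against 3.81, 3.94 and 3.86 in the floxed mice, near the level of the median probe set (0.35 ± 0.13 SE, limma adjusted p = 0.263). The most negative of this group were Trim7, which binds the glycogen primer glycogenin, at −0.36 (limma adjusted p = 0.418), and Trim43a at −0.15. The other 2 probe sets of Trim7 had larger differences. The first had 6.80, 6.68 and 6.13 in the deleted mice, against 7.27, 7.49 and 7.66 in the floxed mice (−0.94 ± 0.19 SE, limma adjusted p = 0.083 over all probe sets). The second had 4.47, 4.43 and 3.80 in the deleted mice, against 5.03, 5.16 and 4.96 in the floxed mice (−0.82 ± 0.18 SE, limma adjusted p = 0.104 over all probe sets). The groups did not overlap at either, whereas they overlapped at the brightest probe set. Trim15, Trim80, Trim44, Trim10, Trim17, Trim69, Trim37, Trim61, Trim45, Trim72, Trim75 and Trim47 lay between 0.01 and 0.29, and Trim16, Trim60, Trim29 and Trim39 between −0.10 and −0.03. In all, 22 of the 58 members had both group means below the median probe set. Of these 0 passed limma and 1, Trim62, reached an unadjusted p under 0.05, which 14.8% of all genes did. For 33 of the 58 the 95% interval of the difference stayed within 0.5 log2 units on both sides.

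Genes that work with TRIM ligases were measured as well. Over all genes 0.781% passed limma and 14.8% reached an unadjusted p under 0.05. Of 13 E2 enzymes, which hand ubiquitin to the ligase, 0 passed limma, 0 reached an unadjusted p under 0.05, and the differences ran from −0.16 to 0.17. The 4 with the smallest p were Ube2e1, Ube2d3, Ube2v1 and Ube2e3, at 0.16, 0.17, −0.16 and 0.17. Of 20 partners and substrates 0 passed limma and 0 reached an unadjusted p under 0.05, with differences from −0.25 to 0.23. Among them the NF-kB scaffold Ikbkg differed by −0.21, the signalling adaptor Mavs by 0.23, Smad2 by 0.17 and Setdb1, the methyltransferase that Trim28 recruits, by 0.23. Of 5 TRIM proteins that carry other names 0 passed limma and 1 reached an unadjusted p under 0.05. This was Pml, the organiser of nuclear bodies and itself induced by interferon, with 8.30, 8.31 and 8.003 in the deleted mice, against 8.42, 9.15 and 8.50 in the floxed mice (−0.48 ± 0.20 SE, limma adjusted p = 0.326). Mid1 differed by −0.47 (limma adjusted p = 0.618), and Mid2, Mefv and Cmya5 by −0.03, 0.08 and 0.05.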

How the data were processed

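Gene expression was measured on 6 Affymetrix arrays, 1 per mouse, 3 Crebbp-deleted and 3 Crebbp-floxed, grouped by the genotype label. Each probe set has 1 deposited intensity for every array, computed with RMA per the submitters' processing notes, which corrects background, equalises quantiles and summarises probes. RMA usually gives log2 values, but these run from 2.96 to 17020, so they were read as linear, log2-transformed and not normalized again. Of 45101 probe sets 34958 had 1 gene symbol in the platform annotation, 932 several and 9211 none, and 34754 of the first were found by Entrez ID in the RefSeq table of GRCm38.p6, with 0 symbols changed. The 64 manufacturer control probe sets were left out, and no filter on dim genes was applied. Arrays have no read depth, and their number limits the precision. Each group is 3 separate mice, per the labels and design text.

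The comparison used limma 3.58.1 under R 4.3.3 (functions lmFit and eBayes, two-sided, no covariates) on 18193 genes, 1 probe set a gene, with Benjamini-Hochberg adjustment over all genes and a threshold of 0.05. Single probe sets were tested in a fit on all of them. A permutation of 3 against 3 cannot reach 0.05, so none was made. The members, lists, tests and alternatives were chosen with earlier results of these data known. The text names members past the threshold or with an unadjusted p under 0.05, the 2 highest and 2 lowest differences of each role group, members with conflicting probe sets, and of each list up to 4 genes with the smallest p. The procedure was tested in 20 simulated runs with known changes in 200 genes, drawn from the means and spreads of these data. The spreads were shuffled between genes and the noise was independent from gene to gene. Any link between level and spread, and shifts that many genes share in 1 mouse, were therefore not simulated. It recovered 22.2% of changes of 0.5 log2 units, 76.3% of 1 and 95.5% of 2, with 4.48% of calls false. Most changes of 0.5 log2 units thus went uncalled there. Replicate numbers did not pair the samples: the deviations of same-numbered samples correlated at 0.03, 0.10 and 0.01. Promoters were scanned with Python 3.11.15 and figures drawn with matplotlib 3.10.9.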

Additional observations from a re-analysis of the deposited data

How the results depend on the processing

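The count of TRIM genes lower in the deleted samples was 2, and 1 higher. The higher count was 0 with log2(intensity + 50), with the probe set of largest SD, with an intensity trend in eBayes, with the replicate number as a block and with sex as a term, where the lower count was 1. Leaving out each sample gave 0 to 2 lower and 0 to 1 higher. The calls over all 18193 genes moved as well, from 142 in the main fit to 37 with sex as a term. Leaving out 1 sample, they ran from 0 (without floxed sample 1) to 226 (without floxed sample 3). Within males and within females, fits added after seeing the data with a lone sample in 1 arm assumed to vary like the others, both counts were 0. The cause of these changes was not tested, beyond the fewer samples of the last fits. Quantile or median scaling again, a filter on dim genes, robust eBayes and adjustment over all probe sets kept both counts, and the mean of probe sets gave the same counts with Trim24 in place of Trim12a. At an adjusted p under 0.1 Trim24 joined the other 3, and the lower count stood at 3. The median over members stayed within the spread between replicates in each alternative run.

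Over 19 alternatives at the same threshold the adjusted p of Trim5 ran from 0.0068 to 0.407 and passed in 15, that of Trim12a from 0.015 to 0.513 (11 passed) and that of Trim32 from 0.035 to 0.676 (7 passed). Without 1 sample or in the fits with sex 25 of the 58 members changed sign, 0 of them among the genes that passed. Among the 21 members the naming rule selects, signs turned for Trim34a at 0.15 with the mean of its probe sets and 1.15 with the one of largest SD, Trim6 at −0.022 with the mean of probe sets and −0.027 within females, Trim7 at 0.083, Trim43a at 0.34 and Trim54 at −0.087 within males, and Trim25 at 0.064 and Trim13 at −0.013 within females. Leaving out each sample moved Trim6 between −0.006 (without deleted sample 3) and 0.32 (without deleted sample 2). Of the others, Trim10 was −0.25 without deleted sample 3 and −0.38 within females, and Trim36 −0.19 within females. With the other probe set of Trim34a, an alternative added after seeing the data, the locus median was −0.48, against −0.86. With the replicate block Trim32 did not pass (limma adjusted p = 0.059) and no other call changed. Signal near background limits 22 of the 58 members.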

Other observations

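Some members were set apart by 1 mouse. Trim10, which is known from erythroid cells, had 5.14 in deleted sample 3, and 3.97 and 3.62 in the other 2 deleted samples, against 4.13, 4.06 and 3.94 in the floxed samples. The SD of Trim10 within the deleted group, 0.79, was the highest of the 58 members there, where the median member had 0.14. Within the floxed group the highest SD was that of Trim21, 0.66, and the median member had 0.14. These genes were chosen after their values were seen.

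Promoters of the members were also searched on both strands for 4 other motifs. The gamma-activated site TTCNNNGAA was held by 4 of the 47 members with a promoter (8.51%) and by 9.55% of all genes. The cAMP response element TGACGTCA, bound by CREB, with which Crebbp partners, was held by 1 of the 47, Trim26, and by 2.03% of all genes, and its shorter core TGACG, which the full element contains, by 10 (21.3%) and 23.0%. The NF-kB motif, GGG and CC with any 5 bases between them, was held by 24 (51.1%) and 53.5%. None of the 4 overlapped the interferon motif in the 7 locus genes. These shares are descriptions of letters in a window and were not tested.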
